A study of Homo sapiens with 6 samples.

Results

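The HSP and DNAJ genes code for molecular chaperones, the proteins that help other proteins fold, refold or be degraded. Members were taken by symbol: the HSPA, HSP90, HSPB and DNAJA, DNAJB or DNAJC series, with HSPH1, HSPD1, HSPE1, BAG3 and FKBP4 added. Symbols came from platform annotation of probe sets assigned to a single gene. This gave 67 genes on 167 probe sets, of 19775 genes on 41091 such probe sets. At the gene level each member was read from its brightest probe set, and 57 of the 67 passed a filter that kept the upper 50% of probe sets by mean signal. The filter keeps 12318 genes in all. HSPA1A, HSPA1B and HSPA8 lie outside the 67, because their probe sets are assigned to several genes.

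Total RNA of Flp-In T-REx 293 cells was measured on 6 arrays. These cells derive from HEK293, a line of human embryonic kidney origin, and hold a defined recombination site into which a transgene is inserted. In the knockdown, 3 clones were given siRNAs aimed at TET1, TET2 and TET3 at the same time. In the control, the same 3 clones were given a pool of siRNAs with no target, and RNA of both groups was taken after 96 h. All cells, controls included, carried a stably integrated, inducible GFP transgene that was left off, so each group represents 3 GFP clones of a single line, with 1 array per clone and treatment. TET enzymes oxidise 5-methylcytosine in DNA, and the design asks how the transcriptome differs once all 3 are depleted together.

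HSP70 proteins bind exposed hydrophobic stretches of unfolded clients in a cycle driven by ATP. DNAJ proteins deliver clients and stimulate the ATPase of HSP70 through their J domain, and nucleotide exchange factors such as HSPH1 and BAG3 reset it. HSP90 takes over later steps of folding for kinases and steroid receptors with a set of co-chaperones, small HSPs hold unfolded proteins, and the chaperonin HSPD1 with HSPE1 folds proteins in mitochondria. Many of the cytosolic genes are targets of the heat shock factor HSF1, and those of the endoplasmic reticulum (ER) are targets of the unfolded protein response.

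A signal is the MAS5 intensity of a probe set, a group of short probes to the same transcript. All 6 arrays had a trimmed mean signal of 1000.1. The 3′ to 5′ ratio was between 1.04 and 1.08 for GAPDH and between 1.89 and 2.15 for ACTB. TET1 averaged 585 ± 123 (SD, n = 3) with TET siRNA and 3222 ± 216 (SD, n = 3) with non-targeting siRNA. Its log2 difference was -2.48 (limma adjusted p = 0.00225). TET2 and TET3 differed by -1.10 (adjusted p = 0.198, or 0.00468 in a fit with the clone as a block, which compares the treatments within clones) and -1.22 (0.0678, and 0.00206 with the block). All 8 markers listed for HEK293 cells, neuronal filament genes and VIM among them, were above the signal filter. Of 7 markers of other cell types 5 were below it, and COL1A1 and PECAM1 were above. Below, differences are TET siRNA minus non-targeting siRNA on the log2 scale of the signal, and adjusted p-values come from limma over all 27306 tested probe sets. With 3 arrays per group, precision is limited by their number.

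Differences between knockdown and control were small for most chaperone genes. A single member, the HSP90 co-chaperone FKBP4, passed an adjusted p of 0.05 over all 6 arrays, and it did so with the clone as a replicate block and not without it. The median difference over the 57 tested members was -0.03, with the middle 50% between -0.13 and 0.10, and over all tested genes it was 0.007. The size of the difference was under 0.25 for 46 of the 57 members. FKBP4 and the small heat shock protein HSPB8 were past 0.5 in size, both toward lower signal. The range ran from -0.64 for FKBP4 to 0.42 for DNAJC22. Without the clone term 0 of 57 members passed after adjustment, where 0.0162% of all tested genes did. In that limma fit, 7 members (12.3%) had an unadjusted p under 0.05, against 6.96% of all tested genes. DNAJC8, FKBP4, HSPA14 and HSPA4 made up the lower side (7.02%, against 3.37% of all). DNAJB4, DNAJC16 and DNAJC22 made up the higher side (5.26%, against 3.59% of all).

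With the clone as a replicate block, FKBP4 was the single call among 57 members, 1.75% against 1.32% of all tested genes in either direction and 0.836% in the lower direction. That share is near the background. An unadjusted p under 0.05 in the blocked fit was reached by 16 members (28.1%), against 16.1% of all tested genes. The 3 knockdown arrays did not overlap the 3 control arrays for 10 members (17.5%), where 13.2% of all tested genes showed this. Of these 10, BAG3, DNAJA4, DNAJC1, DNAJC8, FKBP4, HSPA14 and HSPA4 were lower in the knockdown (12.3%, against 6.41% of all), and DNAJB4, DNAJC16 and DNAJC22 were higher (5.26%, against 6.77% of all). The sign was the same in all 3 clones for 29 members (50.9%, against 37.9% of all). Lower signal in every clone was seen for 17 members (29.8%, against 18% of all), and higher signal in every clone for 12 (21.1%, against 19.9% of all). These counts describe the members, whose choice was made with earlier results of the data known.

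**Figure D1:**
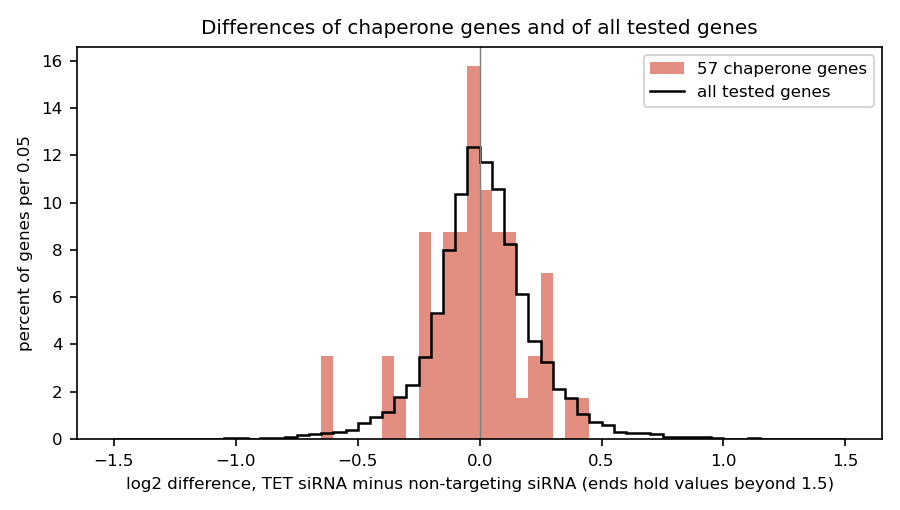
Distribution of log2 differences, TET siRNA minus non-targeting siRNA, in bins of 0.05. Filled bars show the percent of the 57 tested chaperone genes in each bin and the line shows the percent of all tested genes. Both are centred near 0 (medians -0.03 and 0.007), and the bar farthest left holds FKBP4 and HSPB8.

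**Figure D2:**
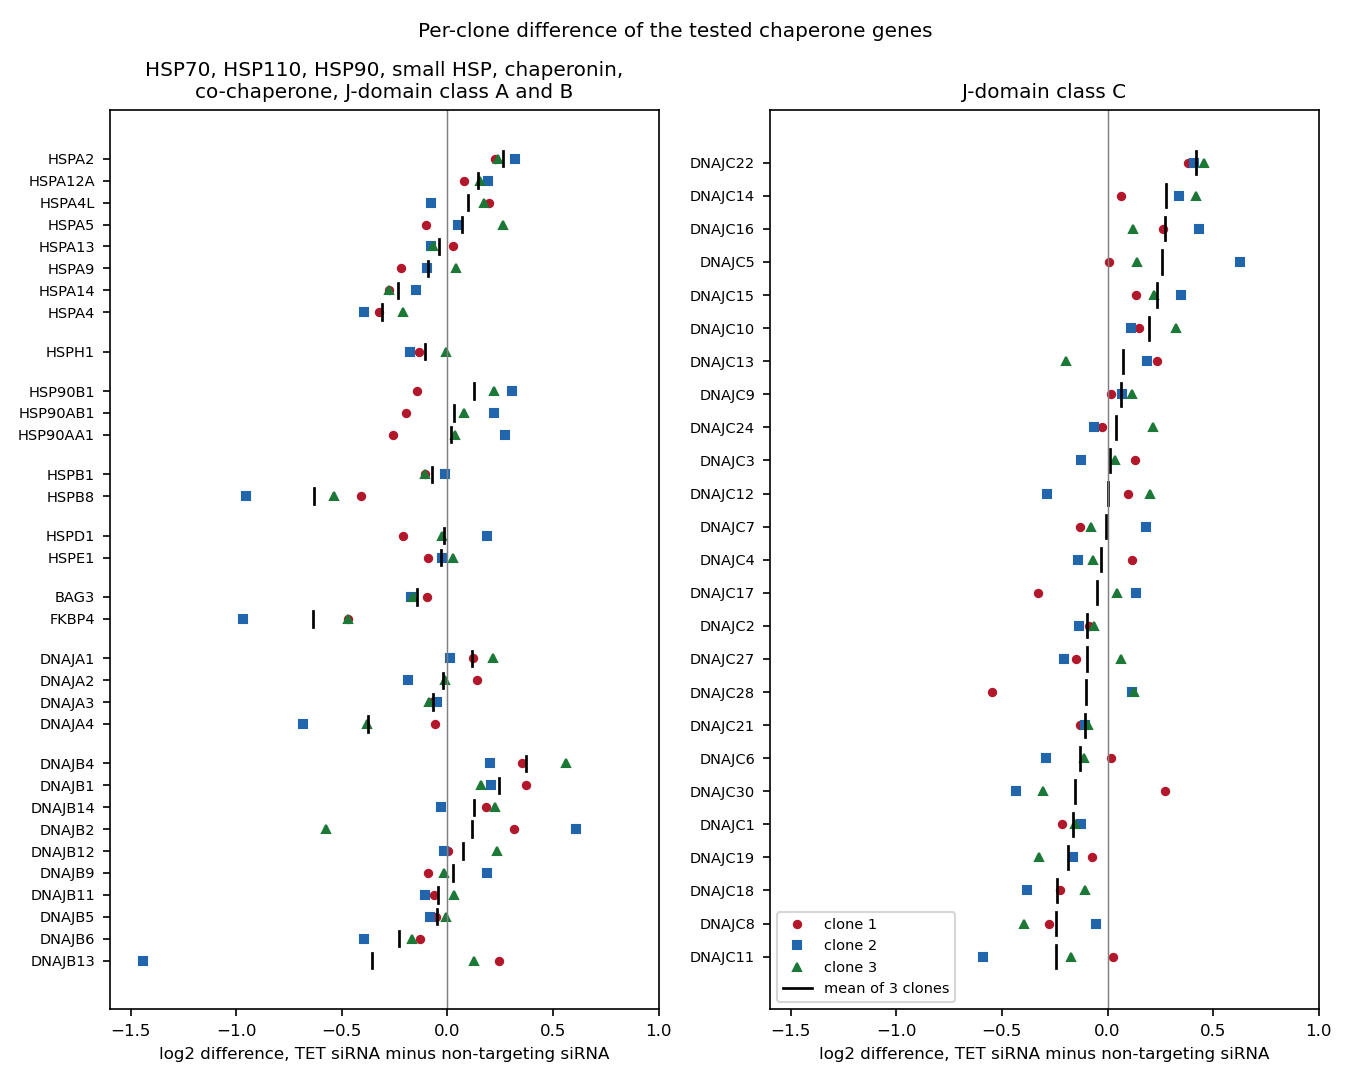
Log2 difference between the knockdown and the control array of each clone for the 57 tested chaperone genes, grouped by family. Symbols are clones and the black stroke is the mean of 3 clones. Most strokes lie within 0.25 of 0, and FKBP4 and HSPB8 lie to the left in every clone.

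FKBP4 (FKBP52, Entrez gene 2288, chromosome 12) is an immunophilin that binds HSP90 and takes part in the maturation of steroid receptors. Its brightest probe set read 5525, 4667 and 5785 in the knockdown of clones 1, 2 and 3, against 7669.7, 9138 and 8026 in their controls. All knockdown arrays lay below all control arrays, and the gap was widest in clone 2. The means were 5326 ± 585 (SD, n = 3) for TET siRNA and 8278 ± 766 (SD, n = 3) for non-targeting siRNA, so the knockdown level was 64.2% of the control by the geometric means. The difference was -0.64 ± 0.11 (SE), with a limma adjusted p of 0.154 without the clone term and 0.0196 once the clone entered as a replicate block. By clone the differences were -0.47, -0.97 and -0.47. In RNA from whole cultures, fewer cells expressing a gene and less of its RNA per cell cannot be told apart.

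All 4 probe sets of FKBP4 were lower in 3 of 3 clones. The second by signal read 2598, 3120.3 and 2854 in the knockdown, against 3805, 3668 and 4688 in the control, a difference of -0.50 ± 0.12 (limma adjusted p = 0.422, and 0.0340 with the block). The third, much dimmer, read 153, 181 and 162 in the knockdown and 361, 509 and 477 in the control. Its groups were the farthest apart of the 4, at -1.43 ± 0.20 (adjusted p = 0.0848, and 0.00522 with the block). For the fourth, whose suffix x marks probes that may cross-hybridise, signals were 171, 111 and 142 in the knockdown and 227, 245 and 221 in the control. The difference there was -0.73 (adjusted p = 0.641, and 0.217 with the block). The brightest and the second carry the suffix s, and the third has no suffix. An alternative given below, which leaves out suffixed probe sets, drops those with s as well as x. Of 131 tested probe sets of all members 3 passed with the block, and all 3 belong to FKBP4. The call with the block held for the brightest probe set without clone 1 (adjusted p = 0.0366), without clone 2 (0.00157) and without clone 3 (0.0430). The blocked fit without clone 2 called more probe sets of all genes than the blocked fit with all clones, so its smaller p adds no support. With plain empirical Bayes shrinkage and the block FKBP4 was not called (adjusted p = 0.321). That fit called no probe set of any gene, so it says nothing about FKBP4 in particular. Without the block, leaving out both arrays of clone 1 gave a call (-0.72, adjusted p = 0.0333). Leaving out those of clone 2 (-0.47, adjusted p = 0.999) or of clone 3 (-0.72) gave none, nor did leaving out any single array.

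**Figure D3:**
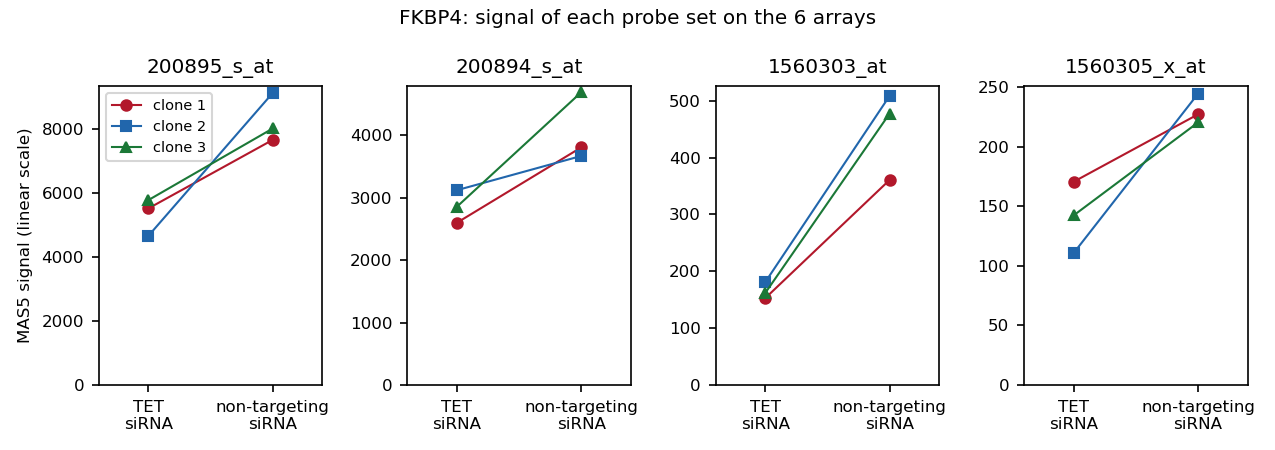
MAS5 signal on a linear scale for the 4 FKBP4 probe sets, TET siRNA at the left and non-targeting siRNA at the right of each panel. A line joins the arrays of each clone, and every line is lower at the knockdown end. Panels run from the brightest probe set at the left to the one with the suffix x, which may cross-hybridise, at the right.

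The HSP90 genes themselves, whose proteins FKBP4 binds, showed no difference past the threshold. HSP90AA1, the stress-inducible cytosolic form, read 48656, 70118 and 63755 in the knockdown of clones 1, 2 and 3, against 58088, 57981 and 62193 in the control. HSP90AB1, the constitutive cytosolic form, read 27202, 31994 and 30514 in the knockdown, against 31207, 27482 and 28919.8 in the control. Both differed by less than the spread between arrays, at 0.02 ± 0.12 (limma adjusted p = 0.992) and 0.03 ± 0.09 (0.973). HSP90B1, the ER form also called GRP94, read 13115, 12142 and 12049.6 in the knockdown and 14489.7, 9837 and 10331 in the control, a difference of 0.13 ± 0.14 (0.918). That HSP90B1 probe set may cross-hybridise, and the other tested one had the opposite sign at -0.12 (0.949). A pair of further ones, assigned to several genes, was not used. The clones did not move together. In clone 1 the knockdown array was the lower for all 3 genes (median -0.20), and in clones 2 and 3 it was the higher (medians 0.27 and 0.08).

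Both cytosolic HSP90 promoters carry the heat shock element, the DNA motif that HSF1 binds, and they are shown for that reason. The sequences are the 250 bases before the transcription start, 5′ to 3′ on the gene's strand, from RefSeq on GRCh38.p14. Capitals mark matches to GAANNTTC or TTCNNGAA, which hold neighbouring units of the element in opposite orientation. HSP90AB1 lies on the plus strand (chr6:44247693-44247942) and has runs of 3 units that begin 165 and 112 bases before the start. HSP90AA1 lies on the minus strand (chr14:102087045-102087294) and has a run of 3 units that begins 88 bases before the start. Each gene has other RefSeq starts whose windows hold no match.
HSP90AB1: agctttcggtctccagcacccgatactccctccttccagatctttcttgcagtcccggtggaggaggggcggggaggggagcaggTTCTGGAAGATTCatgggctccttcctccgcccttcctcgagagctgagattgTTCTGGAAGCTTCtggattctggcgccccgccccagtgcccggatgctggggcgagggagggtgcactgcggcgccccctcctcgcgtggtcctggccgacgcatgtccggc
HSP90AA1: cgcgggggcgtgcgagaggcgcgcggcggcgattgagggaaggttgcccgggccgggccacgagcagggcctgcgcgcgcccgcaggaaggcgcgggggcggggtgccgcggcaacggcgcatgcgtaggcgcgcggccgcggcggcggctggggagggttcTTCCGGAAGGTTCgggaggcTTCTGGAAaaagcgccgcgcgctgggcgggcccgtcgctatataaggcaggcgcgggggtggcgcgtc

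Among HSP70 genes, 8 of 11 were tested and 4 had a positive and 4 a negative difference (median 0.02). HSPA4 and HSPA14 were lowest. HSPA4, a nucleotide exchange factor of the HSP110 type, read 12014, 11092 and 11721 in the knockdown, against 15030.1, 14587 and 13545 in the control. The groups did not overlap, and the difference was -0.31 ± 0.08 (limma adjusted p = 0.434, and 0.0631 with the block). The other 3 probe sets of HSPA4 gave -0.11, 0.06 and -0.07, with overlapping groups. HSPA14, an HSP70 protein that works at the ribosome with the J protein DNAJC2, read 10212, 9654 and 8666 in the knockdown and 12367, 10697 and 10504 in the control. The groups did not overlap, and the difference was -0.23 ± 0.10 (0.738, and 0.132 with the block). A pair of further HSPA14 probe sets gave 0.12 and 0.03. DNAJC2 itself gave -0.10.

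HSPA5, the ER chaperone BiP, and HSPA9, the mitochondrial mortalin, had overlapping groups at 0.07 ± 0.22 (limma adjusted p = 0.977) and -0.09 ± 0.08 (0.878). The second HSPA5 probe set gave 0.32 ± 0.26 (0.885), also with overlap. HSPA2, an HSP70 best known from the testis, was higher in the knockdown of each clone at 0.26 ± 0.29 (0.922). With the block its SE was 0.12 and its adjusted p 0.350. HSPA12A, HSPA4L and HSPA13 gave 0.14, 0.10 and -0.04. HSPH1, the exchange factor HSP105, gave -0.11 ± 0.15 (0.945), and its further probe sets gave -0.01 and 0.10.

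HSPB8 works with BAG3 in delivering clients to autophagy, and had the largest difference after FKBP4, with a wide scatter. It read 602, 221 and 302 in the knockdown of clones 1, 2 and 3, against 799, 428 and 438 in the control. Each clone was lower in the knockdown, yet the groups overlapped, because both arrays of clone 1 were the highest of the 6. The difference was -0.63 ± 0.38 (limma adjusted p = 0.822, and 0.103 with the block). Leaving out the knockdown array of clone 1 moved it to -1.04 and leaving out that of clone 2 to -0.32, both short of the threshold. Such steps leave the clones unequal between the groups, so they mix the level of a clone with the treatment. Within clones 1, 2 and 3 HSPB8 differed by -0.41, -0.95 and -0.54. Its other tested probe set read 199.5, 113 and 92.8 in the knockdown and 91.5, 138 and 114 in the control, at 0.18, with clone 1 alone higher. BAG3 read 7472, 6749 and 6864 in the knockdown and 7983, 7598 and 7685 in the control. Its groups did not overlap, at -0.14 ± 0.08 (0.794, and 0.348 with the block). HSPB1 (HSP27) gave -0.07 ± 0.19 with overlapping groups. The chaperonin HSPD1 and its lid HSPE1 gave -0.02 ± 0.10 and -0.03 ± 0.09. Further HSPD1 probe sets ran from -0.19 to 0.39, with overlapping groups.

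Of the J-domain classes, A and B hold proteins built like bacterial DnaJ in full or in part. DNAJB4 had the highest difference among them. It read 1469, 1149.8 and 1408 in the knockdown, against 1149, 999 and 955 in the control, and the lowest knockdown array just passed the highest control array. The difference was 0.37 ± 0.14 (limma adjusted p = 0.699, and 0.139 with the block), and a further probe set was also higher without overlap at 0.25. DNAJB1, the HSF1 target known as HSP40, was higher in each clone at 0.25 ± 0.15 (0.825, and 0.204 with the block, where the SE was 0.08). Its other probe set gave -0.05. DNAJA4 read 279.9, 219 and 271 in the knockdown and 291, 352 and 353 in the control. All knockdown arrays were lower, at -0.37 ± 0.19 (0.790), though by only -0.06 in clone 1. DNAJA1, an HSF1 target as well, gave 0.12 ± 0.18 (0.952, and 0.497 with the block, where the SE was 0.07). Over all 4 tested DNAJA genes 1 difference was positive and 3 were negative (median -0.04). Over 10 tested DNAJB genes 6 were positive and 4 negative (median 0.05).

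Class C holds J proteins with other domains and specialised sites of action, and all 25 measured DNAJC genes were tested. Of these 11 had a positive and 14 a negative difference (median -0.03). In limma none passed after adjustment in either fit. An unadjusted p under 0.05 was reached by 3 of 25 without the clone term, against 6.96% of all tested genes. With the block it was reached by 9 of 25, against 16.1% of all. DNAJC8, a component of spliceosomes measured here by a probe set that may cross-hybridise, read 7061, 7199 and 6716 in the knockdown, against 8559.6, 7477 and 8829 in the control. Its groups did not overlap, at -0.24 ± 0.09 (limma adjusted p = 0.688, and 0.173 with the block). Its further probe sets gave -0.06, without overlap, and 0.03. Without clone 2, whose difference was -0.05, the blocked fit called the brightest DNAJC8 probe set (-0.34, adjusted p = 0.0188). The clone left out there was the one with the smallest difference. That fit also called more probe sets of all genes than the blocked fit with all clones, so it adds no support for a DNAJC8 difference. DNAJC22, whose fly counterpart acts in endocytosis, read 563, 559.5 and 511 in the knockdown and 432, 421 and 372 in the control. It was the most even across clones of the members past 0.3 in size, with 0.38, 0.41 and 0.46 in clones 1, 2 and 3 (0.42 ± 0.15, adjusted p = 0.682, and 0.206 with the block). Its further probe sets gave -0.22 and 0.02. DNAJC16, a J protein of the ER, read 1959, 1927 and 1810.01 in the knockdown and 1635, 1426 and 1664 in the control. That gave 0.27 ± 0.11 (0.728, and 0.218 with the block), and a further probe set gave 0.21 with overlapping groups. The dimmest gave 0.22 ± 0.56 and was lower in the knockdown of 2 of 3 clones.

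Next by rank of p without the clone term on the higher side of class C were DNAJC14 (0.27), DNAJC5 (0.26), DNAJC15 (0.23) and DNAJC10 (0.20). DNAJC5 is the cysteine string protein of secretory vesicles, and DNAJC10 is an ER disulfide reductase. On the lower side they were DNAJC18 (-0.24), DNAJC19 (-0.19), a part of the mitochondrial import motor, and DNAJC1 (-0.16), an ER membrane protein that binds ribosomes. DNAJC1 read 5751, 5714 and 6052 in the knockdown and 6676, 6233 and 6727 in the control, without overlap. Its tested probe sets ran from -0.16 to 0.08, those of DNAJC19 from -0.19 to 0.02 and those of DNAJC10 from -0.04 to 0.20. All tested probe sets of DNAJC14 and DNAJC5 were positive. Without the clone term, limma adjusted p-values of these 7 genes were between 0.777 and 0.856, and no unadjusted p was under 0.05. With the block, the unadjusted p was under 0.05 for all of them except DNAJC5 (0.0623), and for 16.1% of all tested genes. The 7 were picked by their rank of p, so this share is no result about them.

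By compartment, the lists likewise held both signs. Of 12 members counted as heat-inducible and cytosolic, 11 were tested, with 4 positive and 7 negative differences (median -0.03) and FKBP4 the single call with the block. The list includes HSPD1 and HSPE1, which are induced by heat but act in mitochondria. HSPA6, which is strongly induced by heat in human cells, was below the filter, and read 122, 71.7 and 31.2 in the knockdown and 76.5, 95.7 and 79.0 in the control. The ER list held HSPA5, HSPA13, HSP90B1, DNAJB9, DNAJB11, DNAJC1, DNAJC3 and DNAJC10, with 5 positive and 3 negative differences among 8 (median 0.02). The mitochondrial list held HSPA9, HSPD1, HSPE1, DNAJA3, DNAJC11, DNAJC15 and DNAJC19, where DNAJC15 was positive and the other 6 were negative (median -0.07). Of these 6, DNAJC11, DNAJC19 and HSPD1 also had a tested probe set with a positive difference. Neither list is complete: the ER proteins DNAJC16, DNAJC18 and DNAJB12 and the mitochondrial DNAJC30 are not in them. No gene of these lists passed in either limma fit. With the block, 2 of 8 ER genes and 2 of 7 mitochondrial genes had an unadjusted p under 0.05, against 16.1% of all tested genes. Without the clone term 0 of each list did, against 6.96% of all. The lowest adjusted p without it was 0.777 in the ER list and 0.790 in the mitochondrial list.

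Several probe sets of a gene often gave different signs, which limits how far a small difference can be assigned to the gene. Of 39 members with several tested probe sets, 25 had both signs among them. DNAJC30, which acts in mitochondria, read 709, 498 and 545 in the knockdown and 588, 674 and 673 in the control at its brightest probe set (-0.16). At a dimmer one it read 251, 266 and 219.9 in the knockdown and 188, 131 and 147 in the control (0.67, limma adjusted p = 0.663). The first had overlapping groups and the second did not. DNAJC18, a J protein of the ER membrane, had -0.24 at the brightest probe set and 0.21 and 0.28 at the others. DNAJB12, also of the ER membrane, ranged from -0.28 to 0.25 over 4 probe sets, and DNAJC21, which takes part in ribosome assembly, from -0.12 to 0.49 over 7. HSP90AA1 with 4 probe sets, between -0.02 and 0.06, and HSPA9 with 3, between -0.13 and -0.06, were among those that did not spread.

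**Figure D4:**
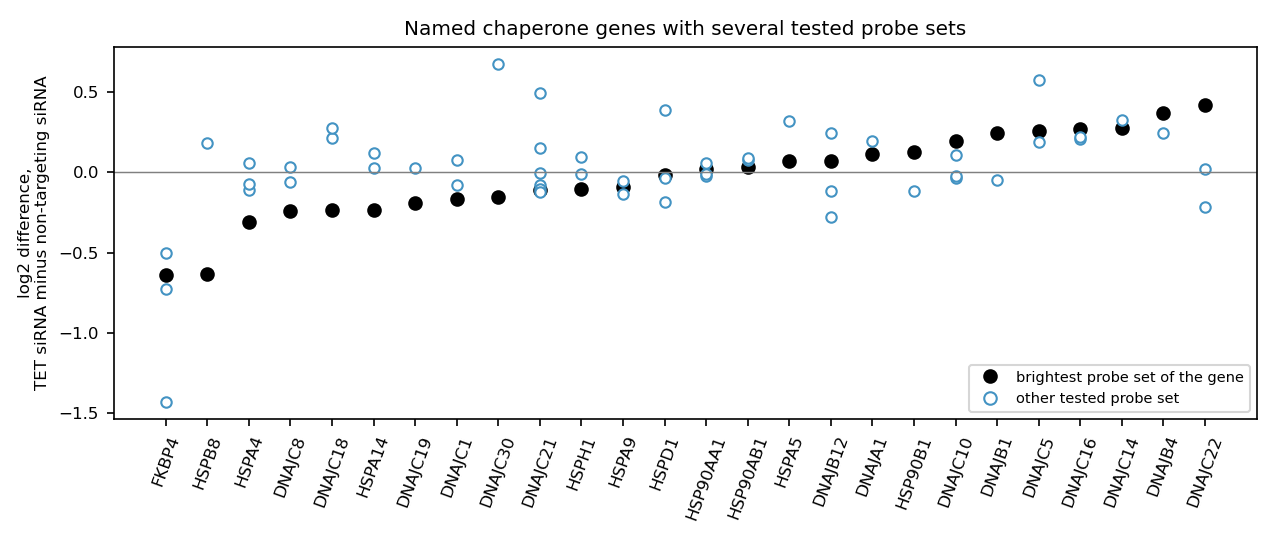
Log2 difference, TET siRNA minus non-targeting siRNA, at each tested probe set of the 26 named chaperone genes that have several. Filled points are the brightest probe set and open points the others, and genes are ordered by the filled point. All FKBP4 points lie below 0, while HSPB8, DNAJC18, DNAJC30 and DNAJC22 have points on both sides.

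Several members differed between the 3 clones, with clone 1 the highest. In an F-test across the 3 clones with the siRNA in the model, 8 of 57 members passed (limma adjusted p under 0.05), 14% against 10.4% of all tested genes. That share is near the background, so the count is not a trait of the chaperones. The 8 members were HSPA5, DNAJB11, DNAJA1, HSPA2, HSPB8, HSPH1, DNAJC9 and DNAJB6, and clone 1 was the highest in all 8. HSPA5 had geometric mean signals of 22394, 13978 and 14759 in clones 1, 2 and 3 (adjusted p = 0.00319). Its ER co-chaperone DNAJB11 had 8153, 5444 and 6009 (0.00382). DNAJA1 had 18247, 12652 and 12726 (0.00487).

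The single arrays show the same order. HSPA5 read 21622, 14218 and 16165 in the knockdown of clones 1, 2 and 3, against 23195, 13743 and 13474 in the control, so both arrays of clone 1 lay above the other 4. A second HSPA5 probe set also differed between clones (limma adjusted p = 0.0174), as did the second probe set of DNAJA1 (0.000929). Of the 3 probe sets of DNAJC9, a histone chaperone, 2 passed (0.0153 and 0.0207), and the dimmest did not (0.280). All 3 of HSPH1 passed (0.0116, 0.0219 and 0.0452). HSPA2 was the exception among the 8, with geometric means of 902, 484 and 825: there clone 2 was low and clone 3 was near clone 1.

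Both clone 1 arrays were above the other 4 for 18 of the 57 tested members, 31.6% against 14.5% of all tested genes. The median of clone 1 minus the mean of clones 2 and 3 was 0.10 over members and -0.03 over all tested genes. Over the 8 ER chaperones it was 0.27, and HSPA5 and DNAJB11 were the 2 called. The call count moved with single arrays. Without the knockdown array of clone 1, 2 members passed, and without its control array HSPA2 alone. Without either array of clone 2, 14 or 15 passed, and with plain empirical Bayes shrinkage 0 passed.

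**Figure D5:**
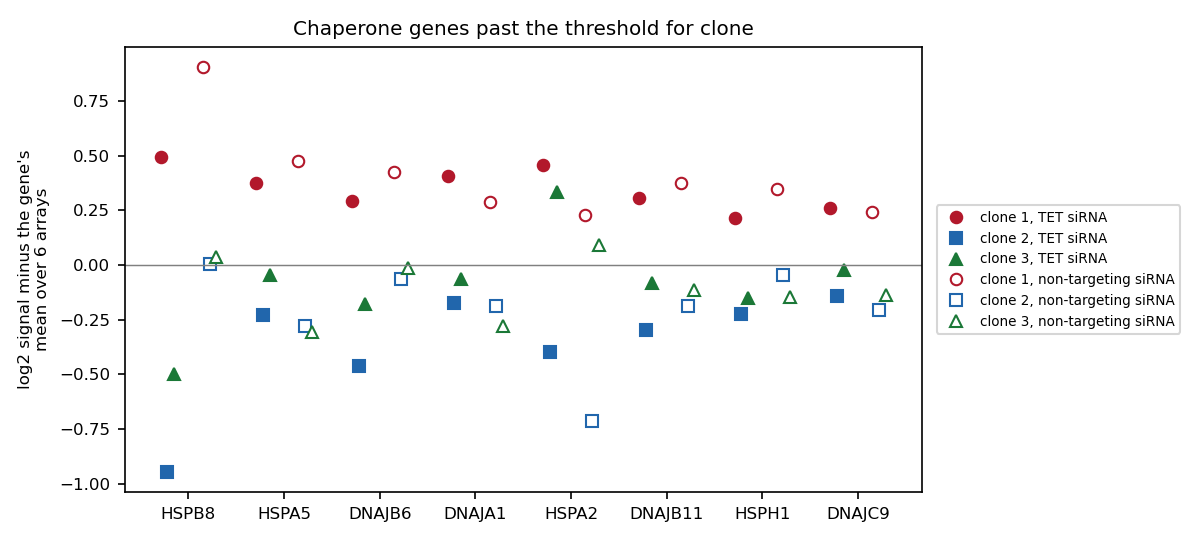
Log2 signal minus the gene's mean over 6 arrays for the 8 chaperone genes that differed between clones. Filled symbols are TET siRNA arrays and open symbols non-targeting siRNA arrays, with a colour and shape for each clone. Both clone 1 symbols lie above all others for 7 of the 8 genes, and for HSPA2 a clone 3 array lies among them.

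HSPA5 carries the ER stress element in its promoter, and HSP90B1, a chaperone of the same compartment, carries it in 2 places. HSP90B1 did not pass between clones (limma adjusted p = 0.117), and clone 1 was above clones 2 and 3 by 0.32. Capitals mark matches to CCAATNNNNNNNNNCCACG on either strand in the 250 bases before the start, 5′ to 3′ from RefSeq on GRCh38.p14. HSPA5 lies on the minus strand (chr9:125241344-125241593), with its match 66 bases before the start. HSP90B1 lies on the plus strand (chr12:103930160-103930409), with matches that begin 194 and 89 bases before it. DNAJB6, which suppresses aggregation of polyglutamine proteins, is shown with them as a gene that differed between clones and holds a heat shock element of 3 units, 131 bases before the start on the plus strand (chr7:157336754-157337003).
HSPA5: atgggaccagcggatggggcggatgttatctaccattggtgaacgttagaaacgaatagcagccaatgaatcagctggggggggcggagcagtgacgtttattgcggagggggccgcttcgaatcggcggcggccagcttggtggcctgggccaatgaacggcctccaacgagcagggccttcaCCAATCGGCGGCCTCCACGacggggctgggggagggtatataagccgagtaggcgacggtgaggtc
HSP90B1: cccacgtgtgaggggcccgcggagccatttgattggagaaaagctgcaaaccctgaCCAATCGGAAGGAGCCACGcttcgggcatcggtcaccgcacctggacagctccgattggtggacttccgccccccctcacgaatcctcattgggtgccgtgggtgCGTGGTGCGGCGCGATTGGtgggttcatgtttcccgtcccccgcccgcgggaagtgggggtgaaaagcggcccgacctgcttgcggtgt
DNAJB6: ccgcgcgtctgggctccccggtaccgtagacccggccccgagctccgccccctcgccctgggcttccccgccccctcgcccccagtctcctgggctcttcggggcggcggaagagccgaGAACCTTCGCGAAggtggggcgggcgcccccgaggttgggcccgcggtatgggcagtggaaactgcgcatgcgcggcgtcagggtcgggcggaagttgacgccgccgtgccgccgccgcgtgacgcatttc

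Across the RefSeq promoter windows, which are 300 bases long and reach 50 bases past the start, 60 of the 67 members had 79 windows. A match to GAANNTTC or TTCNNGAA on either strand was found in 20 of these (25.3%), against 13.5% of all 35116 windows. A run of 3 units, written GAANNTTCNNGAA or TTCNNGAANNTTC, was found in 6 (7.59%), against 0.490% of all. Those windows belong to DNAJA1, DNAJB6, HSP90AA1, HSP90AB1, HSPA6 and HSPD1, and the shorter motif is contained in the longer one. FKBP4, DNAJC1, DNAJC22, DNAJC24, HSPA12B, HSPA14 and HSPB2 had no window, so their promoters were not searched for any motif. The ER stress element was in 2 member windows (2.53%), against 0.0769% of all. CCAAT, which is part of it, was in 35.4% of member windows and 34.6% of all. CpG dinucleotides, which TET enzymes act on when methylated, numbered 24 per member window at the median and 14 over all windows. A match describes letters and is not a bound site. The tested members with 3 units differed by 0.12 (DNAJA1), -0.23 (DNAJB6), 0.02 (HSP90AA1), 0.03 (HSP90AB1) and -0.02 (HSPD1) between knockdown and control.

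Genes that work with these chaperones were read from lists of HSF1 and its regulators, HSP90 and HSP70 partners, J proteins without a DNAJ symbol, the cytosolic chaperonin CCT, prefoldin and other factors. Of 56 listed genes 47 were tested, with 21 positive and 26 negative differences (median -0.007). None passed without the clone term in limma, and 5 of 47 had an unadjusted p under 0.05 (10.6%, against 6.96% of all tested genes). BAG2 alone passed with the block, 2.13% against 1.32% of all. BAG2, an HSP70 co-chaperone that inhibits the ubiquitin ligase CHIP, read 6308, 4368 and 4458 in the knockdown of clones 1, 2 and 3, against 7753, 6707 and 6373 in the control. The groups did not overlap, at -0.48 ± 0.15 (limma adjusted p = 0.628, and 0.0158 with the block). BAG1, another HSP70 exchange factor, read 2695, 2475 and 2462 in the knockdown and 2276, 1316 and 1809.9 in the control, at 0.53 ± 0.18 (0.663, and 0.0768 with the block). HSF1 gave 0.06 ± 0.16 (0.975). The HSP90 partners other than FKBP4 lay between -0.07 (FKBP5) and 0.31 (PPP5C) over 10 genes, and the 7 tested CCT subunits between -0.21 (CCT7) and 0.02 (CCT3).

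The remaining 10 members had a brightest probe set below the filter, at a geometric mean signal of 117. They were DNAJB7, DNAJB8, HSPA12B, HSPA1L, HSPA6, HSPB2, HSPB3, HSPB6, HSPB7 and HSPB9, which include most of the small HSPs known from muscle, heart or testis. The following pair was chosen after the values were seen. DNAJB8, known from the testis, read 67.6, 110.4 and 107 in the knockdown and 64.8, 55.5 and 62.6 in the control, and HSPB6, known from muscle, read 86.3, 89.9 and 80.1 in the knockdown and 60.6, 43.1 and 26.9 in the control. Their groups did not overlap and were higher in the knockdown. No test was run on these signals, which are in the range where MAS5 values are noisy.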

How the data were processed

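Biotinylated cRNA of 6 total RNA samples was measured, per the labels, on Affymetrix arrays of one colour. The deposited values are MAS5 intensities per probe set on a linear scale, already scaled to the same trimmed mean on each array. The name MAS5 comes from the submitters' processing notes. Its version, the hybridisation order and any batch are not stated in the sources used here. MAS5 treats arrays singly, which leaves dim probe sets noisy.

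The 62 control probe sets among 54675 were dropped. The rest were taken to log2, and the upper 50% by mean over 6 arrays (27306) were tested in limma 3.58.1 (R 4.3.3), with trended, robust empirical Bayes, two-sided, and Benjamini-Hochberg adjustment over all of them. Only probe sets with 1 annotated gene were named, and all 67 members matched RefSeq by Entrez ID. Errors after ± beside a log2 difference are SEs of that fit, and beside a mean they are SDs. The steps were tested on simulated data. Alternatives covered the clone block, the filter, a pseudocount of 36.1, quantile normalization, plain empirical Bayes, and arrays or clones left out. They also covered averaging a gene's probe sets, and brightest probe sets without a suffix such as s or x. Figures were drawn with matplotlib 3.10.9.

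Arrays are paired by the replicate number, which is the number of the clone in the labels. After group means were removed, the arrays of clones 1, 2 and 3 correlated within the clone at 0.493, 0.234 and 0.236, and the highest value between different clones was 0.219. Residual SDs had a median of 0.20 in the fit without the block and of 0.13 in the fit with it. The clones are separate samples by the labels, and p-values of the fit without the clone term measure the spread between these 3 per group. Those of the blocked fit are set against how much the treatment difference varied from clone to clone. The F-test across clones uses that same residual.

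The members and lists were chosen with earlier results of these data known. Named members are those past the threshold with or without the block, the 8 of smallest p in each direction, the tested heat-inducible list, HSPA5, HSPA9 and HSP90B1, and members whose probe sets differ in sign with a gap over 0.5. The 8 members that differed between clones are named in full. Further members are named where a sentence on their family or partner gives their value.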

Additional observations from a re-analysis of the deposited data

How the results depend on the processing

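The median member difference lay between -0.04 and 0.007 over all alternatives. The count of members past the threshold, 0 without the clone term, was 1 with the clone as a replicate block (FKBP4), and 0 with the other filters, the pseudocount, quantile normalization, plain empirical Bayes with or without the block, the mean of all probe sets and unsuffixed probe sets. With arrays or clones left out, with or without the block, it was between 0 and 2 members. The addition of the block to each clone left out was chosen after seeing the data. Over all probe sets, 4 passed without the clone term, 282 with the replicate block, 14 when the upper 30% of probe sets were tested, 1 with plain empirical Bayes and 0 with that and the block. Between 0 and 684 passed with arrays or clones left out. With the block, 108 probe sets passed without clone 1 (121 without the block), 684 without clone 2 and 63 without clone 3. Members that differed between clones numbered 8, and 0 with plain empirical Bayes, with 1 to 15 when single arrays were left out. Of 31 named members 22 kept their sign in every alternative that read the same brightest probe set, and the other 9 had a size of at most 0.12. With averaged or unsuffixed probe sets included, 16 kept it. Averaging turned DNAJB12, DNAJC18, DNAJC21 and HSPA9 (DNAJC18 to 0.08), and unsuffixed probe sets turned DNAJC8, HSP90AA1, HSPA4, HSPB8 and HSPH1 (HSPB8 to 0.18), none of them past the threshold. The causes were not tested. No depth is defined for arrays, and dim probe sets carry the least reliable values.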
